A study of Mus musculus with 12 samples.

Results

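The genes described here are 10 transcription factors of the embryonic mesoderm: the forkhead genes Foxc1, Foxc2 and Foxf1, the T-box genes Tbx5, Tbx18 and Tbx20, the homeobox genes Msx1 and Msx2, the basic helix-loop-helix gene Hand2 and the zinc finger gene Osr1. They were taken by symbol from the deposited table of the series, each by its probe set with the highest mean over 12 arrays, and all 10 were found among 19938 genes that had a probe set with 1 symbol. The genes were set by name with earlier results of these data known, and the choice of probe set used the measured level.

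Mesoderm forms as cells leave the primitive streak and spreads into paraxial, intermediate and lateral plate territories. Transcription factors of the forkhead, T-box and homeobox families then mark these territories and many of them go on to act in the heart, limbs, kidney and body wall. Pluripotent stem cells keep such genes low, and retinoic acid, a vitamin A derivative that binds nuclear receptors, drives stem cells out of pluripotency in culture. SET is a histone chaperone and an inhibitor of the phosphatase PP2A.

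RNA was measured in R1 mouse embryonic stem cells. The RA groups were differentiated for 4 days with retinoic acid at 1 µM, in 10% serum from which leukemia inhibitory factor (LIF) was left out, and the ESC groups grew in 15% serum with 1000 U/ml of LIF. Each state was sampled in 3 lines, the Set knockdown lines KD1 and KD2 and a line infected with a scrambled control, with 2 arrays per group and 12 arrays in all. The labels speak of knockdown and control clones. RA and ESC differed in retinoic acid, serum and LIF at once, and each knockdown was 1 line, so that line and knockdown cannot be told apart. The labels call the arrays biological replicates and do not say whether the cultures were separate, so the p-values measure the spread between these arrays, which may be partly technical.

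All values are log2 units of 1-colour Affymetrix arrays, and the array medians lay between 7.17 and 7.24. A pair of arrays, RA KD2 replicate 2 and ESC KD2 replicate 2, stood apart from their labels. Over all genes the array labelled RA KD2 replicate 2 had a mean Pearson r of 0.952 with RA arrays and 0.991 with ESC arrays, and the array labelled ESC KD2 replicate 2 had 0.952 with ESC arrays and 0.991 with RA arrays. A list of naive pluripotency genes averaged 8.14 to 8.95 in the other RA arrays and 11.38 to 11.79 in the other ESC arrays, but 11.75 in RA KD2 replicate 2 and 9.06 in ESC KD2 replicate 2. No array was moved to another group. Calls of the 10 genes are therefore given for the fit of all 12 arrays and for a fit of the 10 arrays that leaves out this pair, in which KD2 has 1 array per state and its spread is taken from the remaining groups. Standard errors, intervals, neighbours, chromosome medians and similar profiles are those of the 10-array fit unless 12 arrays are named. By probe set 10470893, which Set shares with BC085271, the knockdown lines differed from scrambled cells by -1.06 (KD1) and -0.59 (KD2, or -0.44 with 12 arrays) in RA, and by -0.78 (KD1) and -0.67 (KD2, or -0.81 with 12 arrays) in ESC. Probe set 10587486, also shared with BC085271, read 11.21 and 11.17 in RA KD1, 11.5 in RA KD2 replicate 1 and 12.09 and 12.19 in RA scrambled cells. The probe sets that list only Set did not separate the lines in this way in RA. Of these, 10470905 read 6.61 and 6.72 in RA KD1, 6.79 in RA KD2 and 6.68 and 6.45 in RA scrambled cells. For 10470907 the values were 6.35 and 6.04 in RA KD1, 6.20 in RA KD2 and 5.83 and 6.09 in RA scrambled cells. These RA values of both probe sets lay below 7.22, the median of all values.

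RefSeq promoter windows of GRCm38.p6, from 250 bases before to 50 bases after the annotated start, were matched for 6 of the 10 genes. The windows of Tbx18 and Hand2 are shown because RNA of both genes was lower in KD1 than in scrambled cells after RA, and that of Msx2 because its RNA was not called different there. The Tbx18 window is chr9:87731211-87731510 on the minus strand, the Hand2 window is chr8:57320733-57321032 on the plus strand, and the Msx2 window is chr13:53472731-53473030 on the minus strand. Capitals mark matches to the searched motifs on either strand.
Tbx18: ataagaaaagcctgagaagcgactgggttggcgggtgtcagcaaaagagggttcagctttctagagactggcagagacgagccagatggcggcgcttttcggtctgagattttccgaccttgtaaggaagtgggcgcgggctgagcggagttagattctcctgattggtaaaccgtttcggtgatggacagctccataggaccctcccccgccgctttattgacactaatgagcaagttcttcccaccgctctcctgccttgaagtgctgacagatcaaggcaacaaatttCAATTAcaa
Hand2: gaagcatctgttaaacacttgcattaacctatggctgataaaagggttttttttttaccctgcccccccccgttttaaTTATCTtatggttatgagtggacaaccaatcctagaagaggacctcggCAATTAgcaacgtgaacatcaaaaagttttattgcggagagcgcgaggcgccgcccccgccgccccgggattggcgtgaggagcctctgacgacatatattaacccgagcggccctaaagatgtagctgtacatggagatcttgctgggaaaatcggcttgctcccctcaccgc
Msx2: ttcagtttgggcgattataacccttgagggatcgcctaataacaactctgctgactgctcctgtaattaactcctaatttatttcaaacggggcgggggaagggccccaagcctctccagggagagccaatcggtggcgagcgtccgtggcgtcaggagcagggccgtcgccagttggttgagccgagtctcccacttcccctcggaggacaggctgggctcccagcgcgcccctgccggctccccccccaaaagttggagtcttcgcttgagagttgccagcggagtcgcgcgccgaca
Both strands were searched for the retinoic acid receptor half-sites AGGTCA and AGTTCA, the T-box half-site AGGTGT, the forkhead motif GTAAACA, the homeobox core TAATTG and the GATA motif AGATAA. The Tbx18 window held TAATTG on the reverse strand, and the Hand2 window held TAATTG and AGATAA on the reverse strand. The Msx2 window held none of the 6, which says only that these letters are not in this window. Of the other 3 matched genes, Foxc1 held AGTTCA, while the windows of Msx1 and Tbx20 held no match. Among all 32851 windows, 8% held TAATTG, 11.2% AGATAA, 14% AGTTCA, 16.3% AGGTCA, 13.7% AGGTGT and 3.65% GTAAACA. The CpG count was 15 in the Tbx18 window, 17 in Hand2, 22 in Msx2, 26 in Tbx20, 29 in Msx1 and 32 in Foxc1, against a median of 7 over all windows.

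After RA, scrambled cells carried more RNA of most of these genes than growing stem cells did, and Msx1 was the exception. Foxf1, which acts in lateral plate and splanchnic mesoderm, read 11.85 and 12.08 in RA scrambled arrays, against 7.83 and 7.82 in ESC scrambled arrays. Foxc2, a factor of paraxial mesoderm and of lymphatic vessels, read 10.83 and 10.65 in RA scrambled cells, against 6.07 and 6.35 in ESC scrambled cells. Tbx18, a marker of the epicardium, the sinus horn and somites, read 9.75 and 10.18 in RA scrambled cells and 5.94 and 6.37 in ESC scrambled cells. In all 3 genes the RA arrays lay above the ESC arrays with no overlap, as they did for 32% of all genes. Osr1, which marks intermediate and lateral plate mesoderm, read 10.11 and 10.76 in RA scrambled cells and 7.13 and 6.62 in ESC scrambled cells. Msx2, a homeobox gene that responds to BMP signals, read 9.55 and 9.41 in RA scrambled cells and 7.03 and 7.33 in ESC scrambled cells. Its relative Msx1 read 7.91 and 7.68 in RA scrambled cells and 7.80 and 7.78 in ESC scrambled cells, which overlap.

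The remaining 4 genes differed between RA and ESC scrambled cells by smaller amounts. Foxc1, the partner of Foxc2 in somites and vessels, read 7.83 and 8.0 in RA scrambled cells and 5.97 and 5.91 in ESC scrambled cells. Tbx20, a factor of the developing heart, read 9.25 and 8.45 in RA scrambled cells and 7.02 and 6.84 in ESC scrambled cells. Hand2, which acts in heart, limb and branchial arches, read 8.78 and 8.79 in RA scrambled cells and 7.56 and 7.27 in ESC scrambled cells. Tbx5, a factor of the forelimb and heart, was dim throughout, at 7.28 and 6.90 in RA scrambled cells and 5.76 and 5.56 in ESC scrambled cells. Tbx5 exceeded 7.22, the median of all values, on 1 of 12 arrays, while Foxf1 and Msx1 did so on all 12. In arrays of whole cultures, fewer cells that express a gene and less RNA per cell cannot be told apart.

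**Figure D1:**
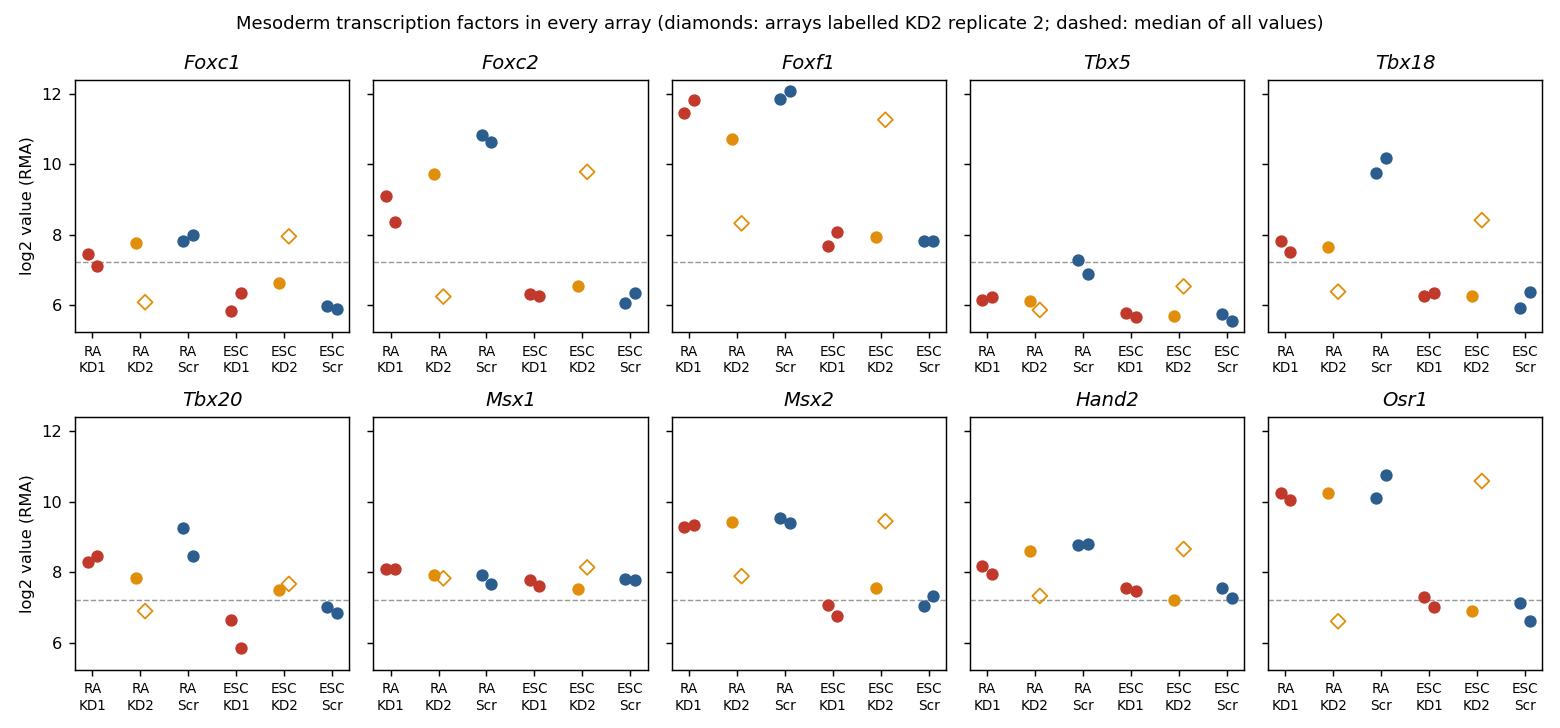
Log2 value of each of the 10 genes (y axis, 1 panel per gene) in each of the 12 arrays, by group (x axis; Scr is scrambled). Diamonds mark the arrays labelled KD2 replicate 2, which lie at the level of the other state for genes such as Foxc2 (6.25 in RA, 9.79 in ESC); the dashed line is the median of all values, 7.22. Tbx18 separates the circles of both knockdown lines (7.53 to 7.84; diamond 6.39) from scrambled cells (9.75 and 10.18) in RA.

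With limma and Benjamini-Hochberg adjustment over all genes, 7 of the 10 genes rose in RA scrambled cells over ESC scrambled cells in the fit of 12 arrays, where 8.14% of all genes rose, and 9 of 10 rose in the fit of 10 arrays, where 21.8% rose. Their median change was 2.14, against -0.04 over all genes. The 7 calls with 12 arrays came to 0 when any 1 of the 8 scrambled or KD1 arrays was left out and to 9 when any 1 of the 4 KD2 arrays was, while the 9 calls with 10 arrays numbered 9 in each of the 8 fits without 1 further array. Foxc2 rose 23.1-fold (log2 4.53, SE 0.22, adjusted p = 1.18e-06 in the 10-array limma fit and 0.0438 with 12 arrays). Foxf1 rose 17.6-fold (log2 4.14, SE 0.17, adjusted p = 6.09e-07 and 0.0417), and Tbx18 rose 14-fold (log2 3.81, SE 0.19, adjusted p = 1.45e-06 and 0.0264). Another Foxf1 probe set, 10576049, showed a wider gap, at 12.38 and 12.28 in RA scrambled cells and 6.47 and 7.02 in ESC scrambled cells. Osr1 (3.55) and Hand2 (1.37) were called only in the fit of 10 arrays, with adjusted p of 6.1e-06 and 6.38e-05 there and 0.0771 and 0.0762 with 12 arrays. Msx2 (2.30), Foxc1 (1.97), Tbx20 (1.92) and Tbx5 (1.43) passed in both fits. Msx1 changed by 0.01 with a 95% interval of -0.28 to 0.29 and was not called in either fit.

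In KD1 cells the same comparison gave 3 genes called in the fit of 12 arrays (7.02% of all genes rose) and 10 of 10 in the fit of 10 arrays (20.3% rose). The 3 were Foxf1 (3.76), Tbx20 (2.13) and Msx2 (2.39), and 0 or 1 was left when any 1 of the 8 scrambled or KD1 arrays was taken out of the 12. Foxc2 rose by 2.46, Osr1 by 2.99, Tbx18 by 1.38 and Foxc1 by 1.19 in the 10-array fit. The smallest rises were those of Hand2 (0.56), Tbx5 (0.47) and Msx1 (0.41), whose calls were lost in some fits that left out 1 further array. Without RA KD1 replicate 1 they stood at 0.45, 0.52 and 0.40 with limma adjusted p of 0.0968, 0.0691 and 0.117, and the Tbx5 call was lost without any 1 of the 4 KD1 arrays (0.40 to 0.53). Msx1 in KD1 read 8.10 and 8.09 in RA and 7.77 and 7.60 in ESC.

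In KD2 cells the result depended on the pair of arrays that stood apart. No member was called in the fit of 12 arrays, in which 0% of all genes rose by limma and 344 genes, none of them a member, had an unadjusted p below 0.05. Without the pair, 7 of 10 rose, where 11% of all genes did. Osr1 (3.34), Foxc2 (3.17) and Foxf1 (2.77) led, followed by Msx2 (1.87), Hand2 (1.40), Tbx18 (1.39) and Foxc1 (1.15). Tbx5 (0.41), Msx1 (0.39) and Tbx20 (0.34) were not called. Tbx20 read 7.85 in the RA KD2 array and 7.51 in the ESC KD2 array of that fit.

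**Figure D2:**
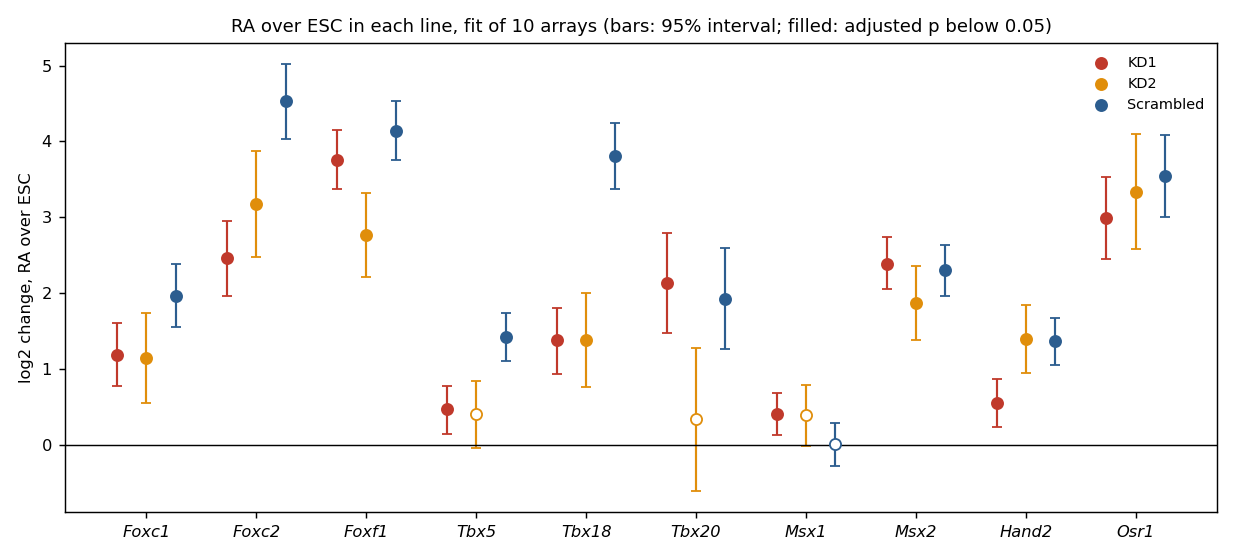
Log2 change of RA over ESC (y axis) for each gene in KD1, KD2 and scrambled cells in the fit of 10 arrays; bars are 95% intervals and filled points passed an adjusted p of 0.05. Tbx18 changed by 1.38 in KD1 and 1.39 in KD2 against 3.81 in scrambled cells, whereas Osr1 changed by 2.99, 3.34 and 3.55.

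In growing stem cells the question is whether the lines differed before differentiation. No member was called for KD1 or for KD2 against scrambled in ESC by limma in either fit. In the fit of 10 arrays 0.843% of all genes rose and 1.08% fell in KD1, and 0.717% rose and 0.271% fell in KD2; in the fit of 12 arrays these shares were 0.0201%, 0.0451%, 0.01% and 0.0752%. For KD1 alone, Tbx20 (-0.68) was the member at an unadjusted p below 0.05 in the 10-array limma fit, where 3142 of 19938 genes had such a p. Foxc1 had the largest difference of the members in KD2 in that fit (0.69), which holds 1 KD2 array per state. It read 6.63 in that ESC KD2 array, above 5.97 and 5.91 in ESC scrambled cells. With 12 arrays only Foxc1 in KD2 (1.35) had an unadjusted p below 0.05 in limma, where 2057 of 19938 genes did. With 10 arrays the interval for Tbx18 was -0.28 to 0.59 in KD1 and -0.41 to 0.65 in KD2, and for Foxc2 it was -0.42 to 0.57 in KD1 and -0.26 to 0.95 in KD2. With 12 arrays these were -1.27 to 1.57 and -0.23 to 2.61 for Tbx18, and -2.55 to 2.71 and -0.66 to 4.59 for Foxc2.

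After RA the members parted. Tbx18 read 7.84 and 7.53 in KD1 and 7.66 in KD2, against 9.75 and 10.18 in scrambled cells, and the array labelled RA KD2 replicate 2 read 6.39. All knockdown arrays thus lay below both scrambled arrays, as they did for 30.6% of all genes in KD1 and for 19.2% in KD2 with both of its arrays. With RA KD2 replicate 1 alone, the share in KD2 was 30.7%. In the order of its 10-array group levels, Tbx18 was highest in RA scrambled cells, then in RA KD1 and RA KD2, which did not differ beyond their spread (KD1 minus KD2 0.03, 95% interval -0.50 to 0.56), and then in the ESC groups, whose arrays overlapped between 5.94 and 6.37. Foxc2 read 9.11 and 8.38 in RA KD1 and 9.73 in RA KD2, against 10.83 and 10.65 in scrambled cells, with 6.25 in RA KD2 replicate 2. Tbx5 read 6.14 and 6.25 in RA KD1 and 6.12 in RA KD2, against 7.28 and 6.90 in scrambled cells, with 5.87 in RA KD2 replicate 2. For both genes too, every RA knockdown array was lower than every RA scrambled array. RA KD2 replicate 2 resembled ESC arrays over all genes. Low values of RA-raised genes in it thus do not bear on the knockdown. The array labelled ESC KD2 replicate 2 read 8.42 for Tbx18, 9.79 for Foxc2 and 6.54 for Tbx5.

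For KD1 against scrambled in RA, no member was called with 12 arrays, where 0.742% of all genes fell. Tbx18 and Tbx5 then had unadjusted p of 0.00562 and 0.00556 in limma. At an unadjusted p below 0.05 in that fit, 1223 of 19938 genes were lower. In the fit of 10 arrays 4 of 10 fell and none rose, where 6.69% of all genes fell. Tbx18 fell to 20.7% of scrambled (log2 -2.28, SE 0.19, adjusted p = 0.000139 in the 10-array limma fit and 0.129 with 12 arrays). Foxc2 fell to 25.1% (log2 -1.99, SE 0.22, adjusted p = 0.000587 and 0.583), and Tbx5 fell to 53.8% (log2 -0.89, SE 0.14, adjusted p = 0.00384 and 0.129). These 3 calls held in each of the 8 fits that left out 1 further array of the KD1 or scrambled groups. Hand2 read 8.18 and 7.96 in RA KD1 against 8.78 and 8.79 in scrambled cells and fell to 61.0% (log2 -0.71, adjusted p = 0.0111 and 0.664). The Hand2 call was lost without RA KD1 replicate 2, RA scrambled replicate 1 or RA scrambled replicate 2, at -0.60, -0.72 and -0.71 (limma adjusted p = 0.122, 0.067 and 0.0632).

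The other 6 genes were not called in KD1 after RA. Foxc1 read 7.47 and 7.12 in RA KD1 and 7.83 and 8.0 in RA scrambled cells (log2 -0.62, limma adjusted p = 0.0623; 0.0219 with the replicate number as a block). Osr1 read 10.24 and 10.06 in RA KD1, overlapping 10.11 and 10.76 in scrambled cells, with a difference of -0.28 (95% interval -0.82 to 0.26). Msx2 read 9.29 and 9.33 in RA KD1 against 9.55 and 9.41 in scrambled cells, a difference of -0.17 (-0.51 to 0.18). In the 10-array fit these intervals exclude a fall of the size seen for Tbx18 and Foxc2, whereas with 12 arrays that of Osr1 was -3.15 to 2.58 and includes it. Foxf1 read 11.45 and 11.84 in RA KD1 against 11.85 and 12.08 in scrambled cells, a difference of -0.32 (-0.71 to 0.07). Tbx20 differed by -0.47 and Msx1 by 0.30.

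For KD2 against scrambled in RA, no member was called with 12 arrays, where 0.246% of all genes fell. At an unadjusted p below 0.05 in that limma fit, 5 members were lower, as were 1271 of 19938 genes. In the fit of 10 arrays 3 of 10 fell, where 0.637% of all genes did. Tbx18 fell to 20.3% of scrambled (log2 -2.30, SE 0.23, limma adjusted p = 0.00382, and 0.143 with 12 arrays) and was called in all 8 fits that left out 1 further array. Foxf1 read 10.71 in the RA KD2 array against 11.85 and 12.08 in scrambled cells (log2 -1.26, adjusted p = 0.0329 in limma, and 0.0583 to 0.128 in the 4 fits without 1 array of the RA KD1 or RA scrambled groups). Tbx5 fell to 51.0% (log2 -0.97, limma adjusted p = 0.0414), and was no longer called in 5 of the 8 fits, among them those without RA scrambled replicate 1 (0.13) or an array of RA KD1 (0.088 and 0.0876). With the replicate number as a block, Foxc2 (-1.23, adjusted p = 0.00845) and Tbx20 (-1.16, adjusted p = 0.0478) were called as well in limma, against -1.01 (0.153) and -1.0 (0.324) without it. Osr1 (-0.19), Msx2 (-0.05), Hand2 (-0.17), Foxc1 (-0.14) and Msx1 (0.12) were not called. The KD1 and KD2 comparisons share the scrambled arrays.

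**Figure D3:**
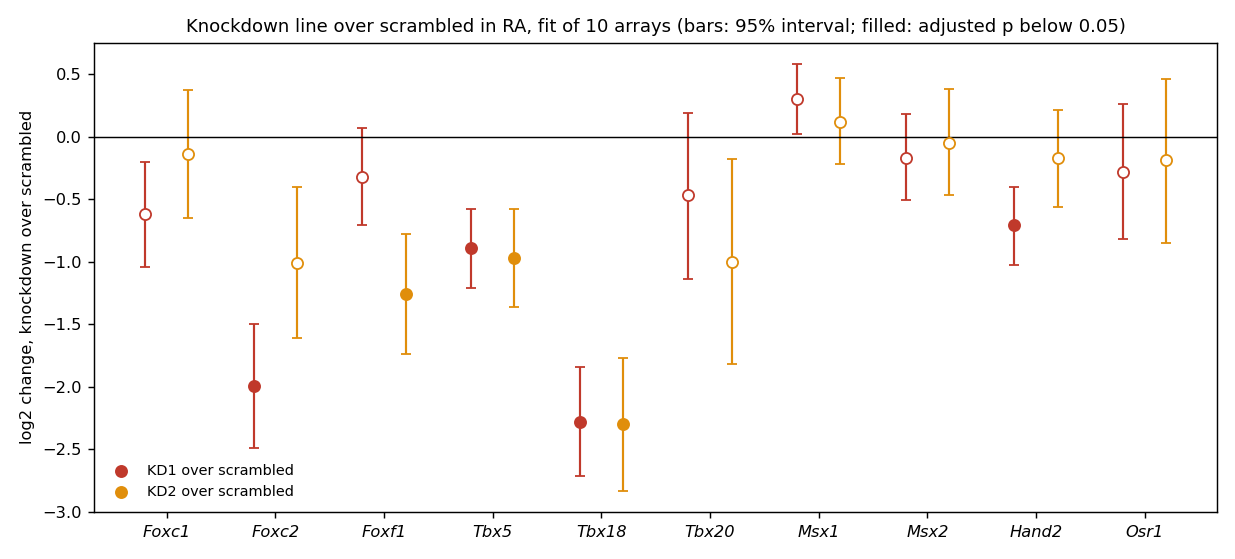
Log2 change of KD1 and of KD2 over scrambled cells in RA (y axis) for each gene in the fit of 10 arrays; bars are 95% intervals and filled points passed an adjusted p of 0.05. Tbx18 lies at -2.28 in KD1 and -2.30 in KD2, and Msx2 lies at -0.17 and -0.05.

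KD1 and KD2 were also set against each other in RA. No member was called in the fit of 12 arrays, where 1.18% of all genes were higher and 0.16% lower in KD1. Tbx20 alone of the members had an unadjusted p below 0.05 in limma (0.0262), where 2692 of 19938 genes did. In the fit of 10 arrays, where 2.41% of all genes were higher and 1.31% lower, only Foxf1 was called, higher in KD1 by 0.94 (limma adjusted p = 0.0462). That call was lost when an array of RA KD1 or RA scrambled cells was left out (limma adjusted p = 0.0693 to 0.295), and when the mean of all probe sets of a gene was used (0.77, adjusted p = 0.0826). The second probe set of Foxf1, 10576049, read 11.52 and 12.06 in RA KD1, 11.19 in RA KD2 and 12.38 and 12.28 in RA scrambled cells. With the replicate block, Foxc2 was lower in KD1 than in KD2 by -0.76 (limma adjusted p = 0.0383), against -0.98 (0.0915) without it.

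The difference between lines in the RA response itself was tested as an interaction. With 12 arrays no member was called, where 0.0552% of all genes had a negative interaction. Tbx5 and Tbx18 had an unadjusted p of 0.022 and 0.0231 in limma. At an unadjusted p below 0.05 in that fit, 817 of 19938 genes had a negative interaction. With 10 arrays 3 members had a smaller response in KD1 than in scrambled cells, where 2.28% of all genes had a negative interaction. The response of Tbx18 was smaller by -2.43 (SE 0.27, limma adjusted p = 0.00175) and that of Foxc2 by -2.07 (SE 0.31, adjusted p = 0.00696). That of Tbx5 was smaller by -0.96 (SE 0.20, adjusted p = 0.0266), a call kept in 2 of 8 fits that left out 1 further array. Hand2 stood at -0.81 (limma adjusted p = 0.0528, and 0.00937 with the replicate block). Msx1 (0.40, unadjusted p = 0.0492 in limma), Tbx20 (0.21) and Msx2 (0.09) had positive values that were not called.

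Markers of extraembryonic endoderm, a lineage that shares GATA factors with the heart, differed between lines in the same arrays and also in ESC. The mean of its 10 genes was 11.05 and 11.11 in RA KD1 and 9.58 in RA KD2, against 8.82 and 8.99 in RA scrambled cells, and their summed signal was 40261 and 42251 in RA KD1, 13815 in RA KD2 and 11089 and 10849 in RA scrambled cells. In KD1 against scrambled in RA, 9 of 10 rose in the fit of 10 arrays and 5 in that of 12. The list median was 2.18 against -0.01 over all genes. At an unadjusted p below 0.05 in limma, looser than the call, 2048 of 19938 genes were higher with 10 arrays and 1215 with 12. The share of all genes called higher in RA KD1 or RA KD2 was not counted, here or for the lists below. Cubn, an uptake receptor of visceral endoderm, read 12.43 and 12.53 in RA KD1, 10.66 in RA KD2 and 8.15 and 8.30 in RA scrambled cells (KD1 over scrambled 4.26, limma adjusted p = 8.28e-07 with 10 arrays and 0.0381 with 12). In ESC the list mean was already 7.93 and 7.92 in KD1 and 8.11 in KD2 replicate 1, against 7.47 and 7.45 in scrambled cells. With 10 arrays 4 of the list were called higher in ESC KD1, where 0.843% of all genes rose, and none with 12. Cubn read 7.12 and 6.98 in ESC KD1 and 8.48 in ESC KD2 replicate 1, against 6.14 and 5.93. In RA, Gata6 rose by 0.59 in KD1 over scrambled cells, and Afp, named after its value was seen, was not called there (-0.39). For KD2 over scrambled cells in RA, Cubn differed by 2.43 and Lama1 by 1.78 (named after its value was seen) with 10 arrays. None of this list was called there with 12 arrays, while Tbx18 was about as low in RA KD2 as in RA KD1. The part of these cells or genes in the lower Tbx18, Foxc2, Tbx5 and Hand2 of KD1 was not tested.

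Other genes of the lateral plate and heart also rose with RA, and some of them were lower in RA KD1. In this list 13 of 17 measured genes rose in RA scrambled over ESC scrambled cells in the fit of 10 arrays and 7 in that of 12, at a median of 1.48 against -0.04 over all genes. Isl1, a factor of heart progenitors, read 7.62 and 7.75 in RA KD1 and 7.65 in RA KD2, against 9.37 and 9.51 in RA scrambled cells. Every RA KD1 and RA KD2 array of Isl1 lay below both RA scrambled arrays. That order held for 30.6% of all genes in KD1 and for 19.2% in KD2 with both of its arrays, or 30.7% with RA KD2 replicate 1 alone. RA KD2 replicate 2, at 6.61, resembled ESC arrays over all genes, so its place does not bear on the knockdown. The array labelled ESC KD2 replicate 2 read 7.48. Isl1 differed from scrambled by -1.75 in KD1 (limma adjusted p = 0.000272 with 10 arrays and 0.0518 with 12) and by -1.79 in KD2 (0.00676 with 10 arrays; -2.31 and 0.0584 with 12). In RA KD1, 3 of the 17 were higher and 5 lower with 10 arrays and none was called with 12, at a median of -0.09 against -0.01. Beside Isl1, those lower were Tbx2 (-1.44), Gata5 (-1.40), Tcf21 (-1.11) and Prrx1 (-0.55), and those higher were Gata4 (3.0), Pdgfra (2.86) and Gata6 (0.59). All but Isl1, Tbx2 and Gata6 were named after their values were seen, and Gata4 and Gata6 are in the endoderm list too.

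Among 12 close relatives of the members, 7 rose and 1 fell with RA in scrambled cells with 10 arrays, and 5 rose with 12, at a median of 0.81. The 1 that fell was Msx3 (-0.31), named after its value was seen. In RA KD1 against RA scrambled, 3 fell and 1 rose with 10 arrays, and 1 fell with 12, at a median of -0.27. Tbx2, a T-box repressor, stood at 2.44 with RA in scrambled cells and at -1.44 in RA KD1 (limma adjusted p = 0.00107, and 0.337 with 12 arrays). Tbx15 stood at 2.53 and -0.62 (limma adjusted p = 0.0359, and 0.827 with 12 arrays). Tbx4 (-1.16) fell and Osr2 (0.50) rose with 10 arrays, both named after their values were seen.

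Primitive streak genes, which act before the members in the embryo, included none called higher with RA. Of 12 measured, none rose and 3 fell in RA scrambled over ESC scrambled cells with 10 arrays, Eomes (-1.19), Mixl1 (-0.50) and Mesp1 (-0.39, named after its value was seen), at a median of -0.25. None was called between KD1 and scrambled cells in RA with 10 arrays, and none in either comparison with 12. For RA against ESC in scrambled cells, the share of all genes called lower was not counted, for this list or the others. At an unadjusted limma p below 0.05 there, looser than the call, 4859 of 19938 genes were lower with 10 arrays and 3775 with 12. Whether falls were more frequent in any list than among all genes was not tested. In the paraxial list 4 of 13 rose and 1 fell with RA in scrambled cells with 10 arrays, and 1 rose with 12, at a median of 0.07. Twist1, a mesenchymal regulator, changed by 3.05 with RA and by -1.14 in RA KD1 (limma adjusted p = 0.0164, and 0.709 with 12 arrays). Tcf15 fell by 1.81 on the log2 scale with RA and stood at 0.04 in RA KD1. Twist2 (1.59), Meox1 (0.59) and Pax3 (0.30) also rose with RA, and Twist2 fell in RA KD1 (-0.63), all 3 named after their values were seen. With 12 arrays no paraxial gene was called in RA KD1.

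In the intermediate mesoderm and kidney list 4 of 10 rose and 2 fell with RA in scrambled cells with 10 arrays, and 1 rose and 2 fell with 12, at a median of 0.21. Wt1, a factor of the kidney and epicardium, changed by 2.75 with RA and by -1.33 in RA KD1 (limma adjusted p = 0.00739, and 0.698 with 12 arrays). Sall1 changed by -1.66 with RA and by 0.64 in RA KD1. Osr2 (0.52), Emx2 (0.71) and Hoxd11 (0.73) rose and Pax8 (-1.27) fell with RA, and in RA KD1 Hoxd11 (-0.87) fell and Osr2 (0.50) rose, all named after their values were seen. That left 2 higher and 2 lower in RA KD1 with 10 arrays and 1 lower with 12, at a median of 0.07.

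Ligands and targets of BMP signalling, which patterns the lateral plate, were counted next. Of 13, 10 rose in RA scrambled over ESC scrambled cells with 10 arrays and 6 with 12, at a median of 1.18. Bmp5 read 7.84 and 7.51 in RA KD1 and 8.0 in RA KD2, against 8.75 and 9.48 in RA scrambled cells (KD1 over scrambled -1.44, limma adjusted p = 0.00402, and 0.601 with 12 arrays). Bmp2 read 10.44 and 10.57 in RA KD1 and 8.93 in RA KD2, against 8.10 and 7.93 in RA scrambled cells (KD1 over scrambled 2.49, limma adjusted p = 3.46e-05, and 0.18 with 12 arrays). The RA KD1 arrays were thus all lower than scrambled for Bmp5, as for 30.6% of all genes, and all higher for Bmp2, as for 26%. Bambi (-1.17) and Smad6 (-0.94) fell and Nog (1.12) rose in RA KD1 with 10 arrays, all named after their values were seen, and 1 of the 13 rose with 12 arrays.

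Of 8 Hedgehog pathway genes 4 rose with RA in scrambled cells with 10 arrays and 2 with 12, at a median of 0.86. They were Hhip (2.16), Gli3 (2.05) and, named after their values were seen, Smo (1.67) and Shh (1.46). In RA KD1 3 fell and 1 rose with 10 arrays and 1 rose with 12, at a median of -0.50. Named after their values were seen, Gli1 (-0.96), Shh (-0.77) and Ptch1 (-0.42) fell and the ligand Ihh (1.98) rose. Hhip (-0.96) and Gli3 (-0.58) were not called there.

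Markers of other cells that such cultures could hold were counted as well. Fibroblast and smooth muscle genes rose in 10 of 10 cases in RA scrambled over ESC scrambled cells with 10 arrays and in 7 with 12, with Dcn at 5.19 and Acta2 at 2.91. In RA KD1, 3 of these fell with 10 arrays and none was called with 12, Dcn (-0.52) and, named after their values were seen, Postn (-1.73) and Col3a1 (-0.95), while Acta2 (-0.17) was not called. Of 9 measured neural crest genes 6 rose and 1 fell with RA in scrambled cells with 10 arrays and 2 rose with 12. Sox9 rose by 3.55 and Ednrb by 2.94, while Foxd3 (-2.70) fell, and in RA KD1 only Snai2 (-1.02) was called with 10 arrays, the last pair named after their values were seen. Of 9 neural genes 1 rose, Nes (2.02), and 5 fell with RA in scrambled cells with 10 arrays, and 1 rose and 1 fell with 12. Stmn2 fell by 3.69 on the log2 scale with RA and was the neural gene called in RA KD1 (-0.88, 10 arrays). The other neural genes that fell, Elavl3 (-1.17), Tubb3 (-0.67), Sox1 (-0.38) and Neurog1 (-0.38), were named after their values were seen.

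**Figure D4:**
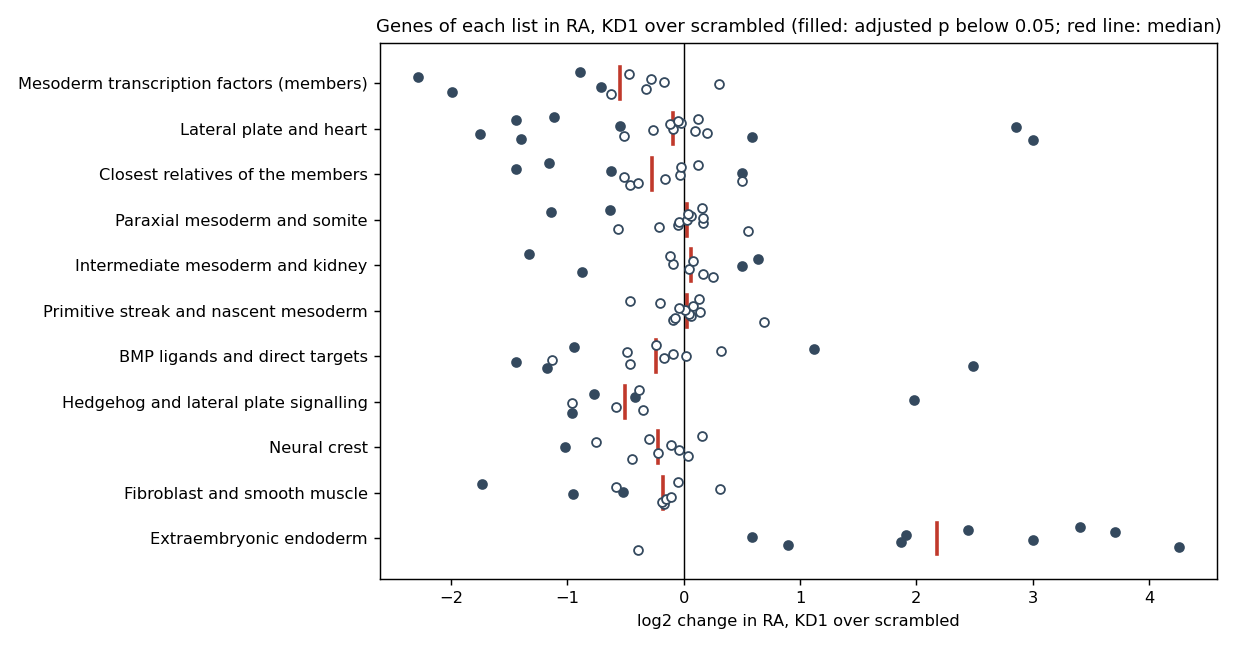
Log2 change in RA of KD1 over scrambled cells (x axis) for every measured gene of 11 lists (rows) in the fit of 10 arrays; filled points passed an adjusted p of 0.05 and the red line is the median of the list. The 10 members have a median of -0.55 with 4 called lower, and the extraembryonic endoderm list a median of 2.18 with 9 called higher; lists overlap in a few genes.

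The genes next to the members on the chromosome were looked up as well. Foxf1, Mthfsd, Foxc2 and Foxl1 follow each other on chromosome 8 in RefSeq. Mthfsd, between both forkhead genes, changed by 1.21 with RA in scrambled cells and by -0.48 in RA KD1 against RA scrambled (limma adjusted p = 0.0481), whereas Foxl1 changed by 0.11 and -0.16. Foxf2, next to Foxc1 on chromosome 13, rose by 2.10 with RA in scrambled cells and stood at 0.50 in RA KD1 (adjusted p = 0.0624, limma). Tbx3, next to Tbx5 on chromosome 5, changed by 0.06 and 0.12. Cep162 and Nt5e, on either side of Tbx18 on chromosome 9, changed by -0.03 and -0.47 in RA KD1 and were not called. Over 955 genes of chromosome 8, which carries Foxc2, Foxf1 and Hand2, the median difference of KD1 from scrambled cells was -0.13 in RA, against -0.0086 over all genes, and -0.093 in ESC, against 0.025. For KD2, with 1 array per state, it was -0.082 in RA, against 0.03, and -0.074 in ESC, against 0.0071.

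Across the 10 arrays, the genes with the most similar profiles were named for the 3 members with the widest range of group means. Foxc2 ran closest to Aadat (Pearson r 0.996), Gnb5 (0.995) and Edil3 (0.994). Foxf1 ran closest to Zfp9 (0.997), Mxd4 (0.995) and Frk (0.994). Tbx18 ran closest to Isl1 (0.993), Cntn4 (0.989) and Cxcl12 (0.989). Between members, r ranged from 0.276 for Tbx18 and Msx1 to 0.977 for Foxf1 and Osr1. These values describe 10 arrays that share the RA and ESC states and most of the contrast between them.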

How the data were processed

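The authors deposited log2 values of 12 arrays, and the submitters' processing notes name RMA without a version. Per the labels' protocols, biotinylated cRNA came from 300 ng of total RNA. The table held 35556 probe sets. The platform annotation listed 23410, of which 21789 had 1 symbol and 1621 several, and 12146 were not listed. Of the 19938 genes, 19853 matched RefSeq (GRCm38.p6), which gave chromosomes, neighbours and promoter windows. The files name no genome build.

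Limma 3.58.1 in R 4.3.3 fitted 6 group means with an intensity trend, with adjusted p below 0.05 as the call. The fit of 12 arrays left 6 residual and 2.76 prior degrees of freedom, and the planned fit of 10 arrays left 4 and 4.93. The number of arrays limits precision. The code was tested on simulated data. Matplotlib 3.10.9 drew the figures.

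Members and lists were chosen with earlier results of these data known. Named genes were the members, at most 2 genes per list with the largest called change, the neighbours, the 3 closest profiles and Set. A gene outside this rule is marked as named after its value was seen.

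Deviations of same-numbered arrays correlated at 0.141 to 0.633 over 6 pairs of groups within a state, and from -0.864 to 0.105 over 9 pairs between states. Pairs of groups with KD2 take in the 2 arrays that stood apart and cannot show pairing. Between scrambled and KD1 cells r was 0.633 in ESC and 0.15 in RA, against -0.0193 to 0.068 between states. Pairing by replicate number was thus weak in RA, where the block results should be read with care. Alternatives were the replicate block, no trend, quantile normalization, a filter on dim genes, the mean of probe sets and leaving out arrays; some, combined with the fit of 10 arrays, were added after seeing the data.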

Additional observations from a re-analysis of the deposited data

Results flagged for a closer look

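In the fit of 10 arrays, the response to RA differed between KD1 and scrambled cells by the interaction test for 3 genes. Tbx18 differed by -2.43, with RA over ESC at 1.38 in KD1 and 3.81 in scrambled cells. Foxc2 differed by -2.07, at 2.46 in KD1 and 4.53 in scrambled cells. Tbx5 differed by -0.96, at 0.47 in KD1 and 1.43 in scrambled cells. In the fit of all 12 arrays the differences had the same sizes and limma adjusted p of 0.482, 0.904 and 0.477.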

How the results depend on the processing

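Values are numbers of members called by limma at an adjusted p below 0.05, unless a gene is named. KD1 cells, RA against ESC, gave 10 members with 10 arrays (3 with 12), 10 with the replicate block, 9 with quantile normalization, 10 without trend, 10 with the mean of probe sets and 9 with the filter on dim genes, each over 10 arrays. KD2 cells, RA against ESC, gave 7 in each of these settings, and 0 with 12 arrays. KD1 against scrambled in RA gave 4, 5 with the block, 4, 4, 4 and 3 in the same order, and KD2 against scrambled in RA gave 3, 5, 3, 2, 3 and 2, all 0 with 12 arrays. KD1 against KD2 in RA gave 1, 2 with the block, 1, 1, 0 and 1, and the interaction 3, 4 with the block, 3, 4, 3 and 3. The filter left 9 members tested, without Tbx5. In scrambled cells, RA against ESC stayed between 6 and 9 in these settings, and ESC comparisons gave 0. With 12 arrays the replicate block changed no member call.

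Leaving out 1 of 12 arrays gave 0 to 9 members (scrambled cells), 0 to 5 (KD1 cells) and 0 to 0 (KD2 cells) for RA against ESC, and leaving out 1 of 10 gave 9 to 9, 7 to 10 and 7 to 7. In RA the ranges were 0 to 2 from 12 arrays and 3 to 5 from 10 for KD1 against scrambled, 0 to 3 and 1 to 3 for KD2 against scrambled, 0 to 0 and 0 to 1 for KD1 against KD2, and 0 to 0 and 2 to 4 for the interaction.

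Signs turned for RA against ESC in KD2 cells, where each group of 12 arrays holds an array of the pair that stood apart. Foxc1 stood at -0.36 with 12 arrays and at 1.15 with 10 (0.98 with the block, 1.03 with quantile normalization, -1.21 to 1.15 over leave-outs). Foxc2 stood at -0.18 and 3.17 (2.89, 3.09, -1.92 to 3.17), Foxf1 at -0.09 and 2.77 (2.83, 2.74, -1.75 to 2.77, and 3.57 by the mean of probe sets), Osr1 at -0.32 and 3.34 (3.65, 3.28, -2.17 to 3.34) and Tbx18 at -0.32 and 1.39 (1.29, 1.27, -1.39 to 1.39). Foxc2 in KD1 against KD2 in RA stood at 0.76 with 12 arrays and -0.76 with the block over 10, and ranged from -1.35 to 2.50 over leave-outs. Values not called in either fit turned as well: Tbx5 (-0.13 and 0.41) and Tbx20 (-0.21 and 0.34) for RA against ESC in KD2 cells, and Foxc1 (0.36 and -0.48), Osr1 (1.73 and -0.09), Msx2 (0.65 and -0.12) and Hand2 (0.10 and -0.54) for KD1 against KD2 in RA, with 12 and 10 arrays. Hand2 (0.53 and -0.20) and Msx1 (0.04 and -0.26) turned likewise for KD2 against scrambled in ESC. For KD1 against KD2 in RA, 10 members were higher in KD1 with 12 arrays and 5 with 10. The cause was not tested. Tbx5, which exceeded the median of all values on 1 of 12 arrays, may have changes that are understated in size.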
